A study of Homo sapiens with 2 samples.

Results

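Sense-overlapping long noncoding RNAs are transcripts with no annotated protein product that lie on the same strand as a protein-coding gene and share its ground. The probes described here were taken from the lncRNA lists of the study by their annotated relation to the nearest coding gene, which had to read exon sense-overlapping or intron sense-overlapping in every row of the probe. This gave 166 of 2002 listed lncRNA probes, 90 in the exon class, 73 in the intron class and 3 with both, and a further 21 probes that combined a sense-overlapping row with another relation were left out. The 166 probes carried 158 lncRNA symbols and overlapped 168 genes. Membership was also selected on measured values, since the study listed a probe for its fold difference between these same arrays, 82 of the 166 as higher and 84 as lower after treatment, and the direction of each probe was therefore fixed by the choice. The lists were held here in part, with 1406 rows of higher and 1363 rows of lower lncRNA probes.

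Both samples were SK-NEP-1 cells, an established human line labelled as a kidney (Wilms tumor) line. One culture received 100 nM LBH589 (panobinostat, which blocks histone deacetylases, a family of enzymes that strip acetyl groups from histone tails) for 24 h, and the control culture received an equal volume of the solvent DMSO. RNA freed of rRNA was labeled with Cy3, and each condition had 1 array, with slide and scan in common. With 1 array per condition no difference has a replicate check, no test was made, and culture, RNA preparation and labeling cannot be told apart from the treatment. The ± values are the measurement error that the scanner software gives for the spots, on the log2 scale, and leave out the variation between cultures. Of 58921 probes, 66.0% lay well above background with DMSO and 63.3% with LBH589, and none of the spots was saturated. The 75th percentile of the processed signal was 189 for DMSO and 108 for LBH589, and each array was set against its own 75th percentile before the difference was taken. Cell type markers were looked up only among the listed mRNA probes, and few had one. The mRNA lists hold changed probes and were held in part, so a marker missing there was not shown to be absent. NKX2-2, which marks Ewing sarcoma, had signals of 290 and 6.42 on the DMSO and LBH589 arrays, and CAV1 of the same list had 4203 and 95.8 by 1 probe and 77441 and 2445 by another. MEOX1, of the Wilms tumor and nephron progenitor list, had signals of 11.6 and 28.3. The DMSO signal of MEOX1 and the LBH589 signal of NKX2-2 were not well above background. COL1A1, of the fibroblast and endothelial list, went from 83.1 to 341 (7.13-fold higher), no blood marker was listed, and the part of cell identity in the results was not tested.

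A coding gene can give rise to noncoding transcripts in several ways. Splicing can skip or retain an exon so that the reading frame is lost, and such isoforms share most of their exons with the mRNA and are often marked for decay. Introns can hold separate transcripts, named with the suffix -IT after the host gene, and can hold small RNAs such as the small Cajal body-specific RNAs (scaRNAs), which are processed from introns and guide the modification of spliceosomal RNAs. Because host and sense transcript share a strand and often a promoter, an array probe separates them only where its bases are not in the other transcript.

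The probes that carry the main results are shown first, with hg19 positions of the transcripts. SCARNA10 (chr12:6619441-6619688, + strand) and SCARNA9 (chr11:93454679-93455031, + strand) lie in introns of NCAPD2 and KIAA1731 and were among the largest rises. RP11-680C21.1 (chr17:11191522-11194128, + strand) and ARID4B-IT1 (chr1:235333435-235334206, - strand) lie in introns of SHISA6 and ARID4B and were among the largest falls, and MAPT-IT1 (chr17:43973149-43976164, + strand) was the brightest -IT transcript on the DMSO array.
SCARNA10: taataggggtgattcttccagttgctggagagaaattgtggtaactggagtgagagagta
SCARNA9: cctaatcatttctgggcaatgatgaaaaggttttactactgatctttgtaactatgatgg
RP11-680C21.1: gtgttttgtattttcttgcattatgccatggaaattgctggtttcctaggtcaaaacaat
ARID4B-IT1: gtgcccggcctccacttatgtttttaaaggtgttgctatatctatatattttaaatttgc
MAPT-IT1: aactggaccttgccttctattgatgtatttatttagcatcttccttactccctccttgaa

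The next probes show how many bases in a row are shared by probes of the same gene. A short shared run does not show that a noncoding probe is absent from the mRNA, which was not checked. Capitals mark the longest run that a noncoding isoform (a RefSeq NR record) shares with a listed mRNA probe of TAC3, SIKE1, EFCAB2 and KLF6, where only the first bases of the probe, and for EFCAB2 the last bases, differ. Within the pairs written in lower case throughout, the probes shared 8 bases or fewer in a row: both noncoding probes of RBMX, and the noncoding and mRNA probes of C7orf55, the gene at which lncRNA and mRNA went apart.
TAC3 NR record: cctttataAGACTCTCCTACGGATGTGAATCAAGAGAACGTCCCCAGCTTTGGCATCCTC
TAC3 mRNA: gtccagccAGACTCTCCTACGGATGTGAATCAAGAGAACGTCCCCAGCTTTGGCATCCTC
SIKE1 NR record: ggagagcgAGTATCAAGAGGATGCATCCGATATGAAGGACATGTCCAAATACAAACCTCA
SIKE1 mRNA: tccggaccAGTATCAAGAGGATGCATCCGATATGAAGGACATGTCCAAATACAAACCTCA
EFCAB2 NR record: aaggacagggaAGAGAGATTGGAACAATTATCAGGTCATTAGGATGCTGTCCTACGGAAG
EFCAB2 mRNA: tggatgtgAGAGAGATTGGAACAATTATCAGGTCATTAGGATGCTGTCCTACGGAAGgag
KLF6 NR record: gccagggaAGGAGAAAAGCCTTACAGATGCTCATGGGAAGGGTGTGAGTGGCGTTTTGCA
KLF6 mRNA: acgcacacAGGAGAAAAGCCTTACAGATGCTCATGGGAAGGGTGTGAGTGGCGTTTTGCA
RBMX, isoform NR_028477: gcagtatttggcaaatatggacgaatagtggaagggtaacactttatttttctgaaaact
RBMX, isoform NR_028476: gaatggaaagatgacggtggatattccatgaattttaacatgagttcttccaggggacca
C7orf55 NR record: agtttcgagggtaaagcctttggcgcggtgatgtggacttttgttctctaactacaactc
C7orf55 mRNA: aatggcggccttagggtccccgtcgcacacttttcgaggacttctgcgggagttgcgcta

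Of the 166 probes, 89 were well above background on both arrays, 74 on 1 array only, 2 on neither, and 1 had a spot flagged as uneven. For the 74, the dim side was raised to the dimmest signal that still passed as well above background (21.3 for DMSO and 14.5 for LBH589) wherever its own was lower, so their folds are lower bounds and are written "at least". On this scale 68 of 163 probes were at least 2-fold higher on the LBH589 array and 63 at least 2-fold lower, and 37 and 30 passed 5-fold. Among the 89 measured on both arrays, 39 were at least 2-fold higher and 50 lower. Over all 41574 probes well above background on 1 array or both, 12.3% were at least 2-fold higher, 10.2% at least 2-fold lower, 2.49% at least 5-fold higher and 1.65% at least 5-fold lower. Since the listing used these same arrays, the larger shares among the sense-overlapping probes follow from the choice, and nothing is read from them. No probe moved against its listing. The median over the 80 higher probes was 2.26 and over the 75 lower probes -2.18 on the log2 scale, beside a median of -0.04 over all probes counted. For 8 probes that were dim on the LBH589 array the bound did not reach a fold of 1, and no difference is given. Nearest to the 2-fold line stood CCM2 at 1.07 and the ultraconserved-region transcript at ATP5G2 at -1.17 inside it, and AK123300 at 0.97 and ALDH1L2 at -0.93 outside it, all 4 being bounds. Without scaling between the arrays, 19 probes were at least 5-fold higher and 59 at least 5-fold lower, but this setting shifted all probes, of which 39.1% were then at least 2-fold lower and 4.33% at least 2-fold higher.

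**Figure D1:**
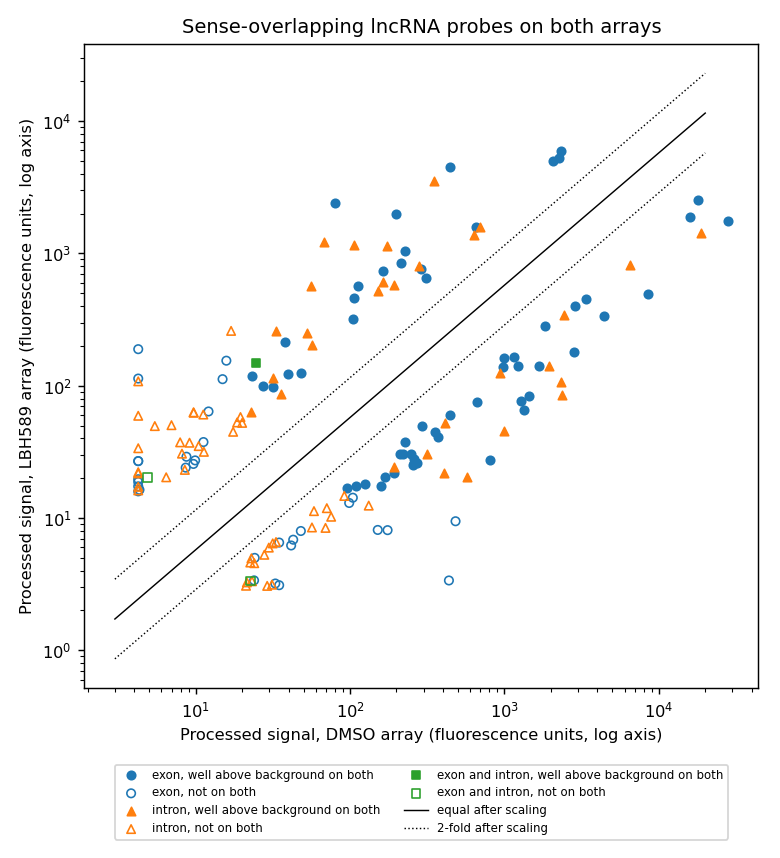
Processed signal of the 165 sense-overlapping lncRNA probes without a flagged spot, DMSO array against LBH589 array, both on log axes in fluorescence units. Marker shape and colour give the class, filled markers are probes well above background on both arrays (89) and open markers the others, and the lines mark equal level and 2-fold after scaling. The points leave the band between the dotted lines empty because probes were listed for their difference.

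The classes are given side by side, with no test between them. In the exon class 32 probes were at least 2-fold higher and 43 lower, whereas in the intron class 35 were higher and 20 lower. The excess of higher intron probes was smaller without scaling (29 and 25) and with normexp background correction (17 and 14). Of the 72 intron probes counted, 42 were bounds, and for 5 of these no difference is given. The 30 intron probes measured on both arrays had 17 higher and 13 lower. The exon class was itself divided. Its 61 NR records that carry the coding gene's own symbol (noncoding isoforms of that gene) had 15 higher and 39 lower, and the remaining 28 unflagged exon probes had 17 higher and 4 lower. At 5-fold the isoforms had 9 higher and 20 lower. The isoforms were also the brighter probes, with a median DMSO signal of 228 beside 61.4 for the other exon probes and 31.6 for the intron class. Their median RNA length was 2116 bases beside 645 for the intron class. By source, UCSC transcripts had 19 higher and 6 lower, and GENCODE transcripts without an -IT name 25 higher and 15 lower. Among probes past 2-fold, 48.1% of the sense-overlapping ones were lower, beside 37.7% of intergenic, 43.4% of antisense and 27.7% of bidirectional probes from the same lists. NR records made up 41.2% of the sense-overlapping probes and 5.51% to 13.8% of the others, and the part of source, length and brightness in the balance was not tested. The higher and lower lists were each held in part, so every balance given here and below also depends on which rows were held.

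**Figure D2:**
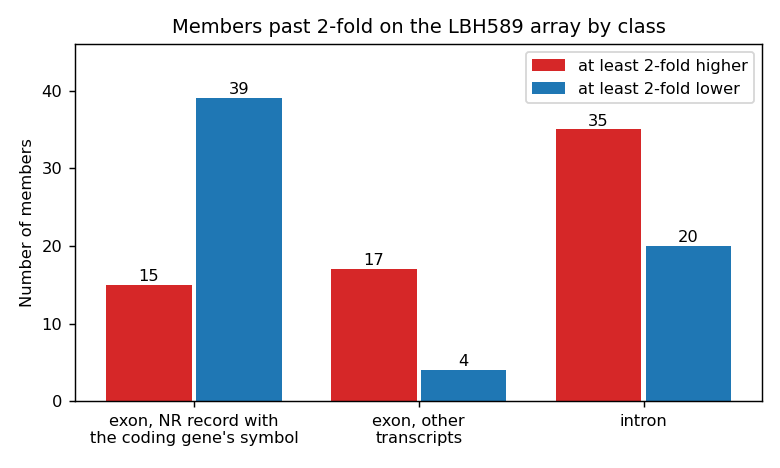
Number of probes at least 2-fold higher (red) and at least 2-fold lower (blue) on the LBH589 array in 3 groups of sense-overlapping lncRNAs. Bars start at 0 and carry their counts, which depend on the rows held of each list. Isoforms with the coding gene's symbol were mostly lower (39 against 15), while other exon transcripts (17 against 4) and intron transcripts (35 against 20) were mostly higher, the latter by less with normexp correction (17 against 14) or without scaling (29 against 25). Intron probes measured on both arrays had 17 higher and 13 lower.

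Position in the gene gave a further description. In 135 of the 166 the lncRNA lay within the span of the gene, and among these 53 were at least 2-fold higher and 55 lower. In 13 the gene lay inside the lncRNA, with 5 higher and 7 lower. A further 11 ran past the 3′ end of the gene, and of the 10 without a flagged spot 6 were higher and 0 lower. Transcripts that began upstream of the gene numbered 7, with 4 higher and 1 lower. None of these groups was tested against another, and the last 2 are small.

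Of the probes measured on both arrays, the largest rise was that of AK127339, an exon-class transcript of 4817 bases on the - strand inside MICALL2 (chr7:1488971-1493787), whose host encodes an adaptor of membrane traffic at cell junctions. With DMSO its signal was 80.0 and with LBH589 it was 2388, which is 51.9-fold higher after scaling (log2 5.70 ± 0.22). SCARNA10, hosted by the condensin subunit gene NCAPD2, went from 67.7 to 1223 (31.4-fold). SCARNA9, hosted by KIAA1731, now CEP295, which encodes a centriole protein, went from 353 to 3499 (17.3-fold). Both intronic scaRNAs were thus among the 7 largest rises.

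AK025288, in an intron of the heparan sulfate polymerase gene EXT1, went from 105 to 1159 (19.1-fold). Transcripts over ubiquitin ligase genes stood next to it: BC029038 over RNF34 went from 445 to 4504 and AF063596 over RBBP6 from 198 to 1998, each 17.6-fold. LINC00597, in an intron of the pseudokinase gene PEAK1, went from 55.9 to 566 (17.6-fold). AC127904.2, in the SUMO protease gene SENP5, was 13.6-fold higher, SND1-IT1 11.3-fold and AK130400 over C1orf150 10.5-fold. Some of the strongest differences were bounds, because the DMSO side was not well above background. SOX2-OT, the transcript that contains the stem cell factor gene SOX2 in its intron, was at least 21.2-fold higher (17.0 and 260), RP11-80H8.4 over the sulfotransferase gene CHST2 at least 15.4-fold higher (4.25 and 189), and the KALRN isoform at least 12.6-fold higher (15.8 and 155).

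Among the falls measured on both arrays, the noncoding isoform of ZEB2, a zinc finger repressor of epithelial genes, was 17.0-fold lower, with signals of 807 and 27.4 for DMSO and LBH589 (log2 -4.08 ± 0.26). The annotation of the ZEB2 probe lists 1 cross-hybridizing transcript, which is not a RefSeq mRNA record. FLJ39739, at the cyclophilin-like gene PPIAL4B, went from 576 to 20.4 (16.2-fold lower), but its annotation lists 11 cross-hybridizing transcripts. RP11-680C21.1, in an intron of SHISA6, an auxiliary protein of glutamate receptors, went from 2373 to 84.7 (16.1-fold lower). RP11-715J22.6 in TBC1D24 and ARID4B-IT1 were 12.6-fold and 12.4-fold lower. The isoform of MTHFS, an enzyme of folate metabolism, went from 1337 to 65.9 (11.7-fold lower). CTB-78F1.2 in ODZ2, now TENM2, was 10.6-fold lower, the isoform of the RNA-binding zinc finger gene UNK 9.93-fold, and XXbac-BPG300A18.13 over the homeobox gene PBX2, at 8468 and 497, 9.79-fold. Of the members with a dim LBH589 side, the isoforms of UGT3A2, a glycosyltransferase, and EFCAB2, now DRC8, were at least 19.1-fold and 17.3-fold lower.

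**Figure D3:**
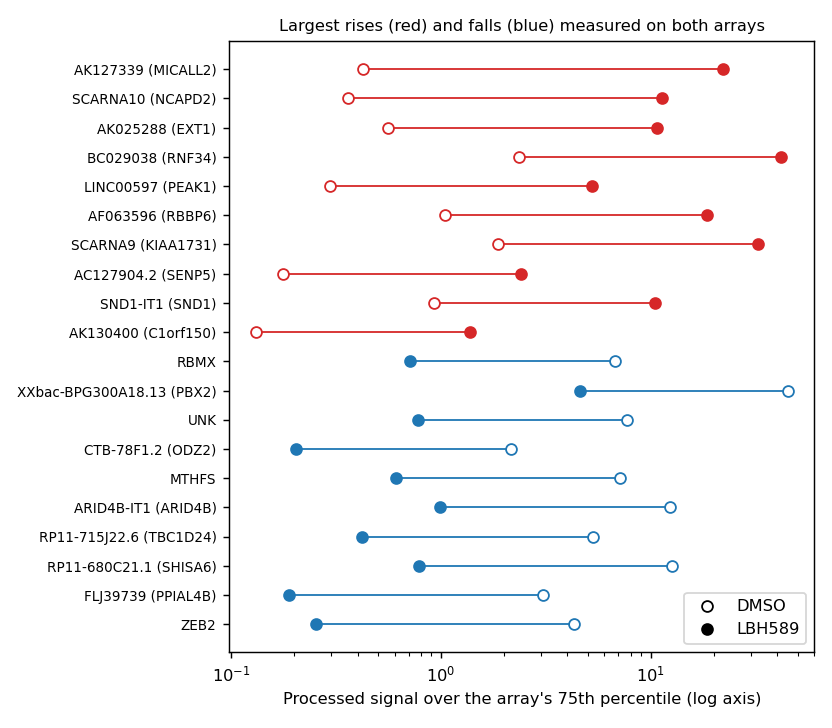
The 10 largest rises (red) and 10 largest falls (blue) among sense-overlapping lncRNA probes well above background on both arrays, named with the overlapped gene where it differs. The log axis gives the processed signal over the array's 75th percentile, open points the DMSO array and filled points the LBH589 array. AK127339 had the longest line, a 51.9-fold rise, and ZEB2 the longest among the falls, at 17.0-fold.

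The brightest members on the DMSO array were falls. The IFITM3 isoform, of a gene whose protein restricts virus entry, went from 27992 to 1759 (9.15-fold lower), but its annotation lists an mRNA as a cross-hybridizing transcript. HMGB1P24, in an intron of the fatty acid synthesis gene ACACA, went from 18690 to 1425 (7.54-fold lower), DKFZp586B1922 over the MSL complex gene MSL1 from 17999.5 to 2550 (4.06-fold lower), and the isoform of PHLDA3, a p53 target that restrains AKT, from 15874 to 1870 (4.88-fold lower). That fallen probes were bright on the DMSO array follows partly from how they were chosen.

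Further members show the range between these extremes. The noncoding isoform of KIAA1324, an estrogen-induced gene, went from 38.2 to 215 (log2 3.29), and that of BCL7B, which encodes a subunit of SWI/SNF chromatin remodeling complexes, from 216 to 850 (log2 2.78). DKFZp586E1322 over the collagen gene COL6A2 was already bright with DMSO at 2322 and reached 5967 (log2 2.16). In the other direction, the isoform of the heparin-binding growth factor gene MDK went from 668 to 75.3 (5.10-fold lower) and that of the ATP-gated channel gene P2RX4 from 259 to 27.9 (log2 -2.41).

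All 9 transcripts named -IT were in the intron class. SND1-IT1 had the strongest rise, from 174 to 1133, CLTC-IT1 was at least 4.04-fold higher and KCNH1-IT1 at least 4.31-fold higher. ARID4B-IT1, from 2315 to 107, and MAPT-IT1, from 6550 to 813 (4.63-fold lower), were the falls past 2-fold. KPNA3-IT1, NAV2-IT1, NTM-IT3 and DIP2A-IT1 had bounds under 2-fold, from 1.25 to 1.89. Thus 3 of the 9 were at least 2-fold higher and 2 lower, and 3 of the 9 were measured on both arrays.

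Where the mRNA of the overlapped gene was also listed, the lncRNA could be set beside it on the same arrays. There were 48 such pairs of probes, and 47 had a direction on both sides, from 38 lncRNA probes and 34 genes. In 46 of the 47 the lncRNA and the mRNA moved the same way, 17 pairs higher and 29 lower. Of the 41 pairs whose probes shared fewer than 20 bases in a row, 40 moved the same way. These 41 still hold the pairs of JAM2, TRIM73 and LRR1, whose lncRNA probe lists an mRNA as cross-hybridizing, and of the 38 pairs without them 37 moved the same way. The shared runs compare probe with probe only. Whether a lncRNA probe also lies in the mRNA was not checked, so both probes of a pair may read the same transcript. Exon-class pairs numbered 36 with 35 the same way, and intron-class pairs 11 with 11. Antisense and bidirectional lncRNAs from the same lists, set beside listed mRNAs in the same manner, moved with the mRNA in 19 of 25 natural antisense pairs, 19 of 32 intronic antisense pairs and 12 of 16 bidirectional pairs. All these pairs were formed from probes listed for a difference on these arrays, of which 994 mRNA probes were higher and 936 lower, and the classes were not tested against each other.

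The sizes are given as a description, because both sides of a pair were listed for their fold on these arrays, which favours small gaps, and no gap between unrelated listed probes was computed. In 24 same-direction pairs measured on both arrays on both sides, the lncRNA and mRNA differences lay a median of 0.16 apart on the log2 scale, and 22 lay within 1. RBMX, SIKE1, KLF6 and ITPA each gave several of these pairs with probes used more than once, so the pairs are not separate cases. The 19 such pairs whose probes shared fewer than 20 bases also had a median gap of 0.16. The RBMX gene, which encodes a splicing regulator, had both noncoding probes lower, 9.50-fold and 9.06-fold, beside mRNA probes 16.0-fold (from 1520 to 54.5) and 8.03-fold lower (from 6441 to 461). The JAM2 isoform, of an endothelial junction protein, was 7.59-fold lower, from 4447 to 337, and its mRNA went from 1331 to 95.6, but the annotation of the isoform probe lists an mRNA as cross-hybridizing. The ITPA isoform, of an enzyme that clears inosine nucleotides, was 4.14-fold lower and its mRNA probes 4.64-fold and 4.39-fold. CBRC7TM_40 in an intron of ARHGEF35 was 4.52-fold lower and the mRNA 4.91-fold. The widest gap was at SHISA6, where the intronic RP11-680C21.1 was 16.1-fold lower and the mRNA 4.46-fold lower, from 175 to 22.6.

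Among the pairs with higher signals, AK127339 was 51.9-fold and the MICALL2 mRNA 23.5-fold higher, from 50.8 to 687. RP11-254F19.2, in an intron of CRISPLD2, a secreted protein gene, was 4.26-fold higher and the mRNA 4.38-fold. RP11-80H8.4 was at least 15.4-fold higher beside CHST2 mRNA at 21.1-fold, from 80.2 to 973. The TAC3 isoform, of the neurokinin B gene, was 7.99-fold higher and the mRNA 11.6-fold, but these probes share 52 of 60 bases. The same holds for 1 SIKE1 isoform with 52, for EFCAB2 with 49, for KLF6 with 52 and for DTYMK with 26. At SIKE1, which encodes a suppressor of IKK-epsilon, the other isoform probe shared at most 10 bases with the mRNA probes and was 4.06-fold higher, beside 3.61-fold and 3.64-fold for the mRNAs.

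C7orf55, now FMC1, which encodes an assembly factor of mitochondrial ATP synthase, was the gene where lncRNA and mRNA went apart. The noncoding record NR_073058 (chr7:139025196-139031065, + strand) starts upstream of the mRNA model, and its probe went from 113 to 566, 8.72-fold higher (log2 3.13). The mRNA probe went from 3281 to 317, 5.95-fold lower (log2 -2.57 ± 0.20). All 4 signals were well above background, both probes share at most 8 bases in a row, and the opposite signs stood under each of the 6 other settings that were run. The annotation of the noncoding probe lists 2 cross-hybridizing transcripts, none of them a RefSeq mRNA record. LOC100129148, an antisense lncRNA listed at the same locus, was higher as well, from 25.2 to 133 (log2 3.20). The remaining pair without a common direction, RP1-168P16.2 in an intron of the chromatin regulator gene ANKRD11, had no lncRNA difference to set beside the mRNA, which was 4.76-fold lower.

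**Figure D4:**
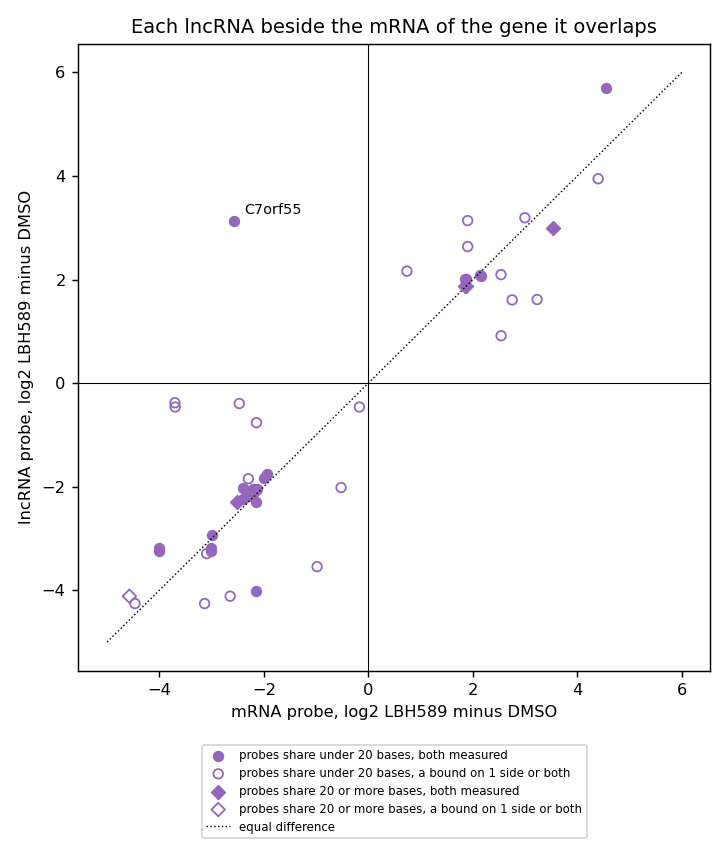
Difference of the lncRNA probe against that of the mRNA probe for 47 pairs at overlapped genes, both as log2 LBH589 minus DMSO. Filled markers are pairs measured on both arrays on both sides, open markers hold a bound, diamonds mark probes that share 20 bases or more, and the dotted line marks equal differences. C7orf55 sits alone in the upper left with its lncRNA at 3.13 and its mRNA at -2.57.

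There were 8 genes with several sense-overlapping probes, 20 probes in all, and at each gene the probes with a difference had the same direction. Since every probe was listed for its fold on these arrays, and probes of the same genes outside the lists were not analysed here, this is a description and no check of the measurement. At MUC20, a membrane mucin gene, 5 probes of SDHAP2 and XLOC_002997 lay between 1.91 and 2.71 (log2) and all were higher, but probes at this gene share up to 29 bases in a row. Its remaining probe, XLOC_002996, was dim on the LBH589 array and had no difference. Both RBMX probes, which share 5 bases, stood at -3.25 and -3.18. HS3ST3B1, a heparan sulfate sulfotransferase gene, had RP11-214O1.2 higher by 6.22-fold and MGC12916 higher by at least 8.81-fold. RP11-214O1.2 (chr17:14207171-14208822) lies inside the span of MGC12916 (chr17:14207057-14209062) on the same strand. The probe pairs of RNF7, which share 51 of 60 bases, TMEM222, which share 32, and CFL2, which share 21, overlap in part and are not fully separate measurements. Those of ARHGEF35, with 7, and SIKE1, with 7, hold different sequence.

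**Figure D5:**
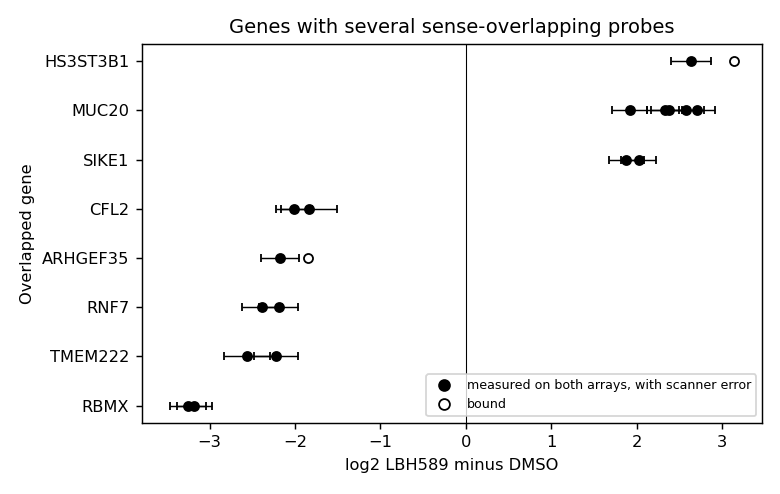
Difference (log2 LBH589 minus DMSO) of each sense-overlapping lncRNA probe at the 8 genes that had several. Filled points were measured on both arrays, with the measurement error of the scanner software as bars, and open points are bounds. At each gene the probes lie on the same side of 0, and the spread at MUC20 runs from 1.91 to 2.71.

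By the function of the host gene, RNA binding and splicing genes had 1 probe at least 2-fold higher and 5 lower of 8. The lower ones were the isoforms of RBMX, UNK and RBM5 and RP11-762I7.4 in SARNP, an mRNA export factor, which went from 1938 to 141 (7.89-fold lower). The higher one was the C7orf55 record, placed here because its annotation reads C7orf55-LUC7L2. Nucleotide and tRNA synthesis genes had 6 of 6 probes lower, all of them own-symbol isoforms: MTHFS, DTYMK (thymidylate kinase, 4.28-fold), ITPA, CMPK1 (a pyrimidine nucleotide kinase, 3.36-fold), SARS (seryl-tRNA synthetase, 3.97-fold) and TARS (threonyl-tRNA synthetase, 3.68-fold). The share of lower probes among all own-symbol isoforms stands above.

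Transcription and chromatin genes had 7 probes higher and 11 lower of 21. Lower were ZEB2, ARID4B-IT1, the PBX2 transcript, the isoform of KLF6, a zinc finger factor (4.94-fold), and that of MEAF6, a subunit of histone acetyltransferase complexes, which went from 1674 to 141 (6.85-fold). Higher were SOX2-OT, RP11-642D21.1 in the GATA cofactor gene ZFPM2 (at least 5.10-fold) and BC008049 over ZMIZ2, from 656 to 1577 (4.18-fold). Ubiquitin ligase genes had 3 higher and 4 lower of 7, with the RNF34 and RBBP6 transcripts and STAG3L1 at TRIM73 (4.23-fold) on one side and both RNF7 isoforms, AK126278 over CUL4A (4.74-fold) and LRR1 (3.57-fold) on the other. DNA repair and p53 response genes had 1 higher and 3 lower of 4. The isoforms of the recombination gene RAD51D and the nucleotide excision repair gene XPA were 4.12-fold and 3.47-fold lower.

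Neuronal genes had 6 probes higher and 3 lower of 14. Higher were the TAC3 isoform, the isoform of the calcium-binding protein gene CALB2 (at least 9.25-fold), KALRN, KCNH1-IT1, RP11-158J3.2 at the serotonin receptor gene HTR1A (at least 4.84-fold) and C15orf45 at SCG5 (at least 2.50-fold), all but TAC3 as bounds. Lower were the transcripts in SHISA6, ODZ2 and MAPT. The list named for heparan and chondroitin sulfate synthesis had 4 of 4 probes at least 5-fold higher. Of these, 2 belong to HS3ST3B1 and 1 to EXT1, which act on heparan sulfate. At HS3ST3B1 the probes belong to transcripts of which 1 lies inside the span of the other. The remaining probe is that of CHST2, which sulfates N-acetylglucosamine on other glycans. Each list is small and was put together with the results of these arrays known, so its counts are a description.

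At some host genes the same lists held lncRNAs with another relation. At MPC1, which encodes a subunit of the mitochondrial pyruvate carrier, the noncoding isoform went from 159 to 17.5 (log2 -2.38), and the bidirectional RP1-168L15.5 went from 70.7 to 304 (log2 2.90). At MAPT, which encodes tau, both the intronic sense MAPT-IT1 and the antisense MAPT-AS1, from 60.1 to 5.09, were lower. At MUC20 the antisense BC044310, from 135 to 1148 (log2 3.89), was higher together with the sense probes. At NTM, a neural adhesion gene, the antisense AP004372.1 went from 1006 to 73.0 (log2 -2.98), whereas NTM-IT3 in the sense direction was dim on the DMSO array with a bound of 0.40. None of these contrasts between transcripts was tested.

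A single member stood apart by its spot. RP11-474N8.5, which runs past the 3′ end of GPR182, now ACKR5, had signals of 252 with DMSO and 214510 with LBH589, but the latter spot was flagged as an outlier by the scanner software, and the probe is in none of the counts above.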

How the data were processed

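RNA of 1 LBH589-treated and 1 DMSO-treated SK-NEP-1 culture was measured on Arraystar Human LncRNA v3.0 arrays (1 colour). The authors deposited scanner output with the intensity of each spot, background-subtracted within the array, and flags of 0 or 1 as a score. They also deposited a table of log2 values, normalized between arrays by a method not given in the sources used here, whose column medians were 6.27 (DMSO) and 6.25 (LBH589). The file headers name Agilent Feature Extraction 11.0.1.1 and the submitters' processing notes 10.7.3.1.

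Control spots and spots flagged as outliers on either array (26 on DMSO, 37 on LBH589) were dropped, log2 signals averaged per probe, each array's 75th percentile subtracted and LBH589 minus DMSO taken. A probe entered the counts if either array placed it well above background. Annotation and probe sequences (hg19, positions from 1) came from the study's probe lists, whose own fold changes, p-values and intensities were not used. Current symbols came from RefSeq (GRCh38.p14), matched for 138 probes. No test was run, since each condition has 1 array; the calculation was tested on simulated data. Members and gene lists were chosen with earlier results of these data known. Named are the 10 largest rises and falls measured on both arrays, probes with a listed mRNA, probes sharing a gene, -IT and scaRNA transcripts, flagged probes and list members; the brightest members and 5 between the extremes were chosen after their values were seen. Alternatives covered scaling, background correction with limma 3.58.1, filters, bounds, outlier spots and the choice of probes. Python 3.11.15, numpy 2.4.6 and pandas 2.3.3 were used. Values of some single members are not reported here.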

Additional observations from a re-analysis of the deposited data

How the results depend on the processing

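The differences of 155 members were recomputed under quantile normalization, no scaling, a 75th percentile over probes measured on both arrays, normexp correction and the deposited table. Under each, 0 of the members that kept a value changed sign. A bound that would cross 0 is given no value, so only members measured on both arrays could have changed sign. Quantile normalization and the percentile over both-array probes kept all 155 within the scanner error, and the values deposited by the authors kept 154. Quantile normalization shifted the median of all probes by only -0.02 and the percentile over both-array probes by 0.08. The error of dim probes is wide, as with 1.48 for AX746677, so staying within it is a weak check for bounds. Leaving out scaling shifted the median of all probes by -0.80 and moved 129 of the 147 members that kept a value. Normexp (on median signals, since the planned mean signals were not in the columns used, with offset 50, then quantile) moved 112. Without scaling, 56 members were at least 2-fold higher and 74 lower, and 19 and 59 passed 5-fold. With normexp, 43 were at least 2-fold higher and 52 lower, and 12 and 16 passed 5-fold. The intron members then had 17 at least 2-fold higher and 14 lower (29 and 25 without scaling). Requiring a signal on both arrays left 39 at least 2-fold higher and 50 lower. Using the dim side's own signal, or flooring scaled signals at 5, gave 80 at least 2-fold higher and 83 lower. At 5-fold these 2 settings gave 61 and 34. In each of these settings, beginning with no scaling, lower members outnumbered higher ones at 2-fold, unlike the 68 and 63 reported. Members with any sense-overlapping row gave 73 higher and 74 lower at 2-fold, and 1 probe per lncRNA and gene 64 and 59. Leaving out probes that list an mRNA as cross-hybridizing, or share 20 bases or more with a listed mRNA probe, gave 65 and 54. Only 7 members list such an mRNA. The others among the 22 that list any cross-hybridizing transcript stayed in. Same-way pairs numbered 46 or 47 and opposite pairs 1 under every setting run for them. No paired analysis was possible because each condition has 1 array, and for the same reason leaving out a replicate was not possible.

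Every difference rests on 2 arrays, so the spread between cultures is unknown. Probes dim on 1 array give only a bound. Isoform and mRNA probes that share most bases cannot be told apart. Where they share few, whether the isoform probe also lies in the mRNA was not checked. The probe lists were held in part.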
